A study of Mus musculus with 2 samples.

Results

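The genes described here encode the enzymes of the Krebs (tricarboxylic acid) cycle, the pyruvate dehydrogenase complex that feeds it, and the malate-aspartate, glutamate and ketone body enzymes that exchange carbon with it. They were chosen as a list of gene symbols, and each was read from the probe that carries its symbol in the platform annotation: 31 of the 31 were found among 16390 named genes on the array, each with 1 probe. RNA came from whole hearts of male C57BL/6J mice aged 6 months, after 3 months of 40% caloric restriction (CR) or of free feeding (ad libitum, AL). The mice with a Sirt1 knockout limited to cardiomyocytes gave 1 CR heart and 1 AL heart, and the control mice gave 1 CR heart and 1 AL heart. Each genotype had 1 two-colour array, on which the CR heart carried Cy3 and the AL heart Cy5, per the labels, without a dye swap. Every condition is therefore 1 heart, no test across hearts could be run, no difference can be set against the spread between mice, and within an array diet and dye cannot be told apart; between the arrays, genotype cannot be told apart from the array. The comparisons ask how the cardiac response to restriction differs when cardiomyocytes lack Sirt1. The promoter that drives the deletion is not given in the sources used here, and a whole heart also holds cells that keep Sirt1.

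Pyruvate dehydrogenase turns pyruvate from glucose and lactate into acetyl-CoA, which citrate synthase joins to oxaloacetate, and the cycle then oxidises it to carbon dioxide while passing electrons to NAD and FAD for the respiratory chain. The adult heart depends on this pathway for nearly all of its ATP and feeds it with fatty acids, lactate, glucose and ketone bodies. Sirt1 is an NAD-dependent deacetylase with PGC-1alpha among its known substrates, and PGC-1alpha is a coactivator of the estrogen-related receptors (ERR) and of NRF1, which bind near many mitochondrial genes.

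The windows from 250 bases before to 50 bases after the gene start were taken from RefSeq (GRCm38.p6) for 28 of the 31 genes (all but Idh3a, Sdhc and Me2), 36 windows in all. Exact matches on both strands were searched for the ERR extended half-site TCAAGGTCA, the NRF1 core CGCATGCG, the ETS (GABPA) site CCGGAAGT and the YY1 site AAGATGGC. The ERR letters stood in 0.423% of the 32851 mouse windows, and among the 28 genes in the window of Sdhd, 36 bases after the start. The ETS letters stood in 3.89% of windows and, among these genes, in that of Dlst, beginning at the start itself. The YY1 letters (2.75% of windows) stood in that of Idh3g, and the NRF1 core (1.87%) in 2 overlapping windows of Ogdh. No match overlapped one of another motif. A match is a run of letters and not a measured binding site. On the knockout array Bdh1 and Pdhx had lower CR over AL values than Dlst, and their windows, not shown, held no match. A link between matches and direction was not tested. The windows of 3 genes are shown, with matches in capitals. They are Sdhd and Dlst, whose values were lower with CR on both arrays, and Sucla2, whose value was the highest of the 31 on both, and whose window held no match.
Sdhd (chr9:50603800-50604099, minus strand): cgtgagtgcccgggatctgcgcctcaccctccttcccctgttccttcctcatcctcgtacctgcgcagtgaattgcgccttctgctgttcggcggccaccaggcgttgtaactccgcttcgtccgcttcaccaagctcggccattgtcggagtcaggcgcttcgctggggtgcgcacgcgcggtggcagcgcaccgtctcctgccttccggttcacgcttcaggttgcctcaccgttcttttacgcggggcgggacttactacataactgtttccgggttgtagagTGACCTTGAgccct
Dlst (chr12:85110583-85110882, plus strand): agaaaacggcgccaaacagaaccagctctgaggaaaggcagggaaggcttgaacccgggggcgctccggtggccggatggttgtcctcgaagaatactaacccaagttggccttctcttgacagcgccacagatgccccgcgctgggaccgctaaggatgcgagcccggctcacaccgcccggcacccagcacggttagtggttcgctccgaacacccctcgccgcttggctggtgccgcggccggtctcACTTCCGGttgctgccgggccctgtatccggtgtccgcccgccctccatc
Sucla2 (chr14:73552536-73552835, plus strand): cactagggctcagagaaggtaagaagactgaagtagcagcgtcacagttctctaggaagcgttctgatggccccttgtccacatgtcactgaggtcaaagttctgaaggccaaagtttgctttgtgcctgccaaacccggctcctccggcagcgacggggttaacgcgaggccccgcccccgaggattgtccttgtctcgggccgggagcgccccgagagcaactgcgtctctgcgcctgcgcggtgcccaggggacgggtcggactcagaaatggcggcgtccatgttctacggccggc

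A spot was called detected where its brightness exceeded the trimmed mean of 2736 blank spots by 2 SD. All 31 genes passed in all 4 hearts, as did 11701 of the 16390 named genes. Of the 31, 27 were among the top 10% of spots by brightness, so that they are compared below with other bright spots as well as with all genes. That subset was chosen after the data were seen. Aco1, Idh1, Pcx and Me2 were the other members. Spot brightness also depends on the probe and does not rank genes by abundance. Repeated spots of a pair of positive controls had SDs of 0.0731 and 0.0883 in log2 ratio on the knockout array and of 0.0447 and 0.0582 on the control array, which describe spot noise only. Sirt1 itself gave a log2 signal of 7.51 in the knockout CR heart and 7.07 in the knockout AL heart, against 7.53 and 7.11 in the control CR and AL hearts. The position of its probe relative to the deleted part is not known here, so this does not check the genotype.

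**Figure D1:**
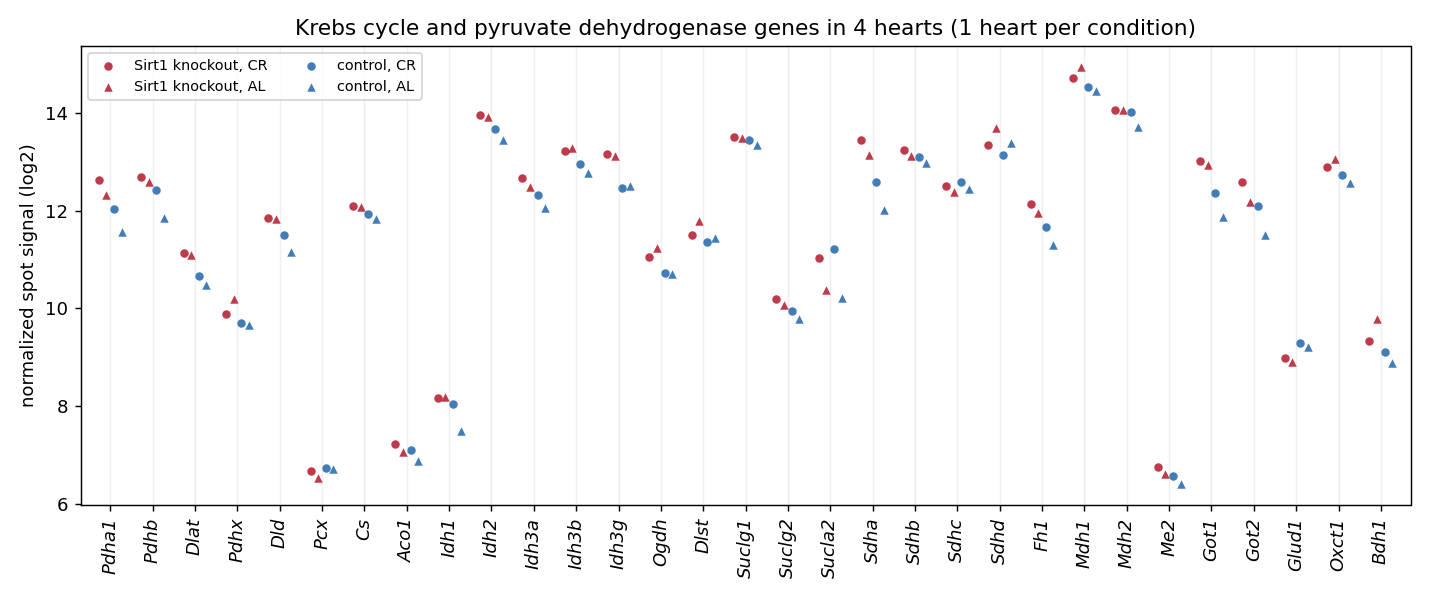
Normalized spot signal (log2, y axis) of each of the 31 genes (x axis, ordered by role in the pathway) in the 4 hearts; red marks the Sirt1 knockout, blue the control, circles CR and triangles AL. The Sdha and Got1 points of the knockout hearts sit above those of the control hearts, and the circles of Sucla2 sit above its triangles in both genotypes.

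With caloric restriction the enzymes of the pathway did not move as a block: Sucla2 passed 1.5-fold in both genotypes, and all other values were smaller than that. Got2 and Pdhb, at 0.583 and 0.580 in control hearts, lay just below the cut of 0.585, by less than the spot noise. In the knockout hearts 22 of 31 genes were higher with CR, against 50.1% of 12144 genes compared, with a median log2 CR over AL of 0.045 (all genes 0.00). In the control hearts 28 of 31 were higher, against 51.4% of 12659 genes, with a median of 0.18 (all genes 0.004). Of bright spots as a whole, 50% were higher in the knockout hearts and 52.8% in the control hearts (median 0.02). In the authors' deposited table, counts were 22 of 31 higher in the knockout hearts (median 0.12) and 18 of 31 in the control hearts (median 0.07). Among the 27 bright members alone, 14 were higher in the control hearts of that table (median 0.03), against 39.3% of its bright spots (median -0.09). With median centring 28 of 31 were higher in the control hearts (median 0.23), where 64.3% of bright spots were. With the local background subtracted 20 of 31 were higher in the control hearts (median 0.16), where 50.4% of bright spots were. The count for the control hearts thus depended on the processing. A change of at least 1.5-fold upward was reached by 1 gene, Sucla2, on the knockout array, where 0.774% of all genes reached it, and by the same gene on the control array, where 0.822% did. No member was lower by 1.5-fold on either array, where 0.758% and 0.34% of all genes were. In each of 6 ways of processing (normexp with an offset of 50 or 0, loess within blocks, median centring, subtraction of the local background, and the authors' deposited table), 10 genes were above 0 on both arrays (Sucla2, Sdha, Got2, Pdha1, Pdhb, Fh1, Idh3a, Aco1, Pcx and Me2) and 2 were below 0 (Sdhd and Dlst), where 13% and 14.9% of 11698 genes were.

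**Figure D2:**
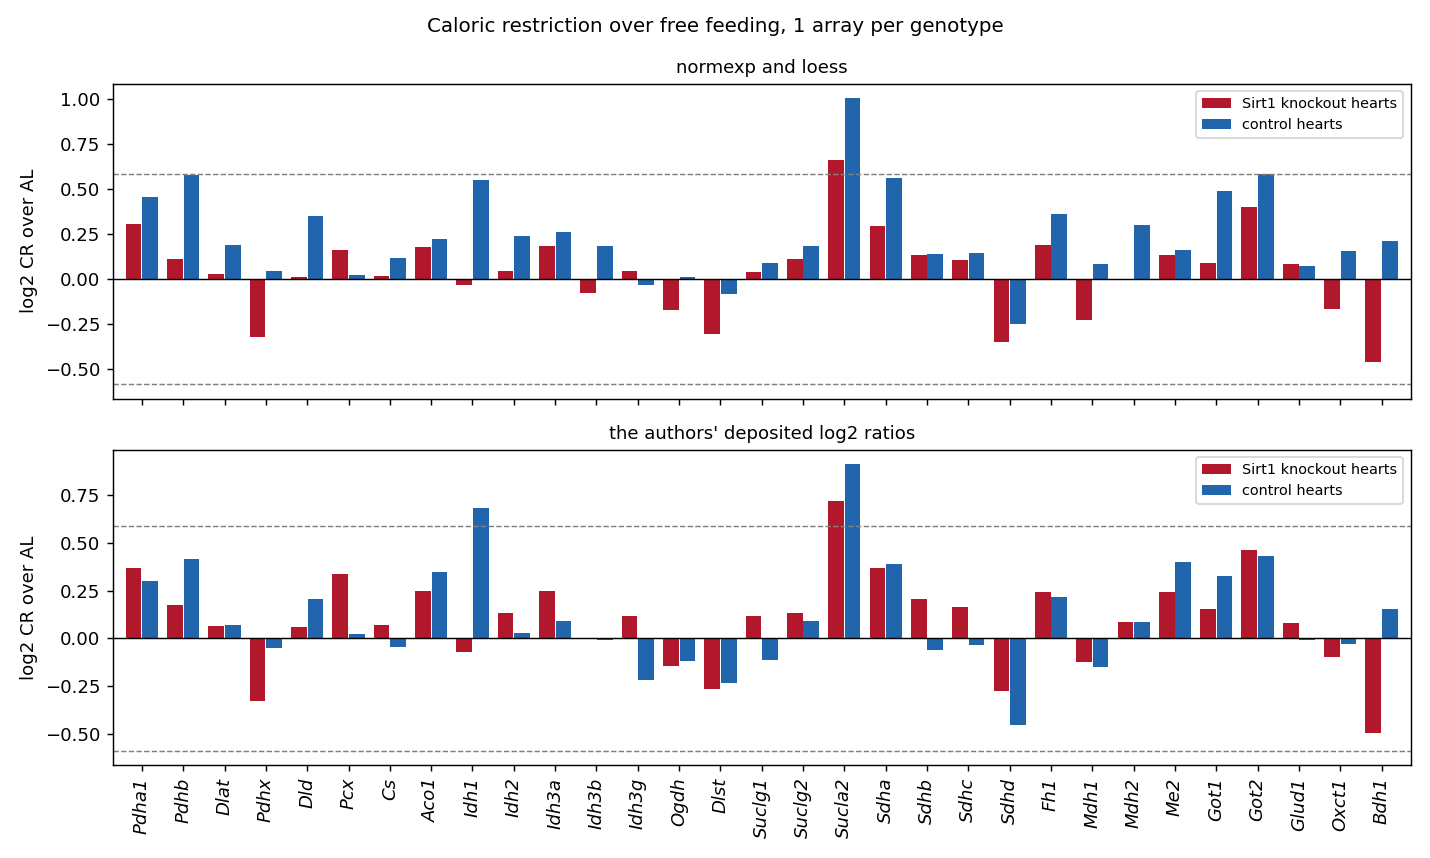
Log2 CR over AL (y axis) of each gene (x axis) in the Sirt1 knockout hearts (red) and the control hearts (blue), after normexp and loess (top) and in the authors' deposited table (bottom); dashed lines mark 1.5-fold. Sucla2 passes the upper line in both genotypes and in both panels, and most control bars are lower in the bottom panel.

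Sucla2 encodes the ADP-forming beta subunit of succinyl-CoA ligase, the one step of the cycle that makes a nucleoside triphosphate directly. Its spot stood 2006.3 scanner units above the blanks in the knockout CR heart and 1106.5 in the knockout AL heart, against 2710.7 in the control CR heart and 1125.1 in the control AL heart. On the normalized log2 scale these signals were 11.03 and 10.37 in the knockout hearts and 11.22 and 10.21 in the control hearts, a CR over AL value of 0.66 (a ratio of 1.58) in knockout hearts and 1.01 (a ratio of 2.01) in control hearts. Both AL hearts lay below both CR hearts. Over all 6 ways of processing, the value ran between 0.66 and 0.84 in knockout hearts and between 0.91 and 1.10 in control hearts. The other subunits of the ligase were closer to 0. Suclg2, the GDP-forming beta subunit that pairs with the same alpha subunit, was at 0.11 in knockout hearts and 0.18 in control hearts, and Suclg1, the alpha subunit, at 0.04 and 0.09.

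The subunits of pyruvate dehydrogenase were also uneven. Pdhb, the E1 beta subunit, gave a log2 signal of 12.70 in the knockout CR heart and 12.58 in the knockout AL heart, against 12.43 and 11.85 in the control CR and AL hearts, so that its CR over AL value was 0.11 in knockout hearts and 0.58 in control hearts. Pdha1, the E1 alpha subunit that carries the regulatory phosphorylation sites, was at 12.63 and 12.32 in the knockout CR and AL hearts and at 12.03 and 11.57 in the control CR and AL hearts, with values of 0.31 and 0.46. The control AL heart was the lowest of the 4 for both E1 subunits. Dlat, the E2 acetyltransferase, was at 0.03 in knockout hearts and 0.19 in control hearts, and Dld, the E3 subunit that other dehydrogenases share, at 0.01 and 0.35. Pdhx, which tethers E3 to the core, was at -0.32 in knockout hearts and 0.04 in control hearts. Median values over the 5 subunits were 0.03 in knockout hearts and 0.35 in control hearts. With the local background subtracted the order of the medians turned round, to 0.24 and 0.12, while Pdhb, Dld and Pdhx stayed lower in knockout hearts. In the authors' deposited table Pdha1 alone had the higher value in knockout hearts, at 0.37 against 0.30.

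Within succinate dehydrogenase, which is both a cycle enzyme and respiratory complex II, the catalytic subunit Sdha and the anchor subunit Sdhd had opposite signs. Sdha, the flavoprotein that oxidises succinate, was higher with CR by 0.30 in knockout hearts and by 0.56 in control hearts. Sdhd, a membrane anchor subunit, was lower with CR at -0.35 in knockout hearts and at -0.25 in control hearts. Its log2 signals were 13.35 and 13.70 in the knockout CR and AL hearts and 13.14 and 13.39 in the control CR and AL hearts, and the sign was the same under all 6 ways of processing on both arrays, although it shrank to -0.03 in knockout hearts with the local background subtracted. The iron-sulfur subunit Sdhb (0.14 in knockout and 0.14 in control hearts) and the other anchor subunit Sdhc (0.11 and 0.15) were above 0, as Sdha was. Both stayed above 0 in knockout hearts in all 6 ways of processing, but not in control hearts. There they were at -0.06 and -0.03 in the authors' deposited table. With the local background subtracted Sdhc was at -0.29 in control hearts and Sdhb at 4.34 in knockout hearts.

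Aspartate aminotransferases, which carry reducing equivalents into mitochondria together with malate dehydrogenases, were on the higher side. Got2, the mitochondrial form, had log2 signals of 12.59 and 12.19 in the knockout CR and AL hearts and of 12.10 and 11.51 in the control CR and AL hearts. Its CR over AL value was 0.40 in knockout hearts and 0.58 in control hearts, positive in all 6 ways of processing. Got1, the cytosolic form, was at 0.09 in knockout hearts and 0.49 in control hearts. With the local background subtracted these turned to -0.42 and -2.14. The brightness around its spot was 6858.0 and 5207.6 scanner units in the knockout CR and AL hearts, where the spot stood 7739.7 and 6292.1 above the blanks, and 6704.3 and 3779.1 in the control CR and AL hearts, where it stood 6246.6 and 3884.5 above them. Of the malate dehydrogenases, the mitochondrial Mdh2 was at 0.00 in knockout and 0.30 in control hearts, and the cytosolic Mdh1 at -0.23 and 0.09.

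Idh1 is the cytosolic NADP isocitrate dehydrogenase, a source of NADPH. Its log2 signal was 8.17 in the knockout CR heart and 8.20 in the knockout AL heart, against 8.04 and 7.50 in the control CR and AL hearts, so that the control AL heart alone stood low. The CR over AL value was -0.03 in knockout hearts and 0.55 in control hearts. Idh2, its mitochondrial counterpart, was at 0.05 and 0.24. The NAD-linked isocitrate dehydrogenase, the form that drives the cycle, had small values in both genotypes, with Idh3a (the catalytic alpha subunit) at 0.19 in knockout and 0.26 in control hearts, Idh3b at -0.08 and 0.18, and Idh3g at 0.04 and -0.04.

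The E2 subunit of oxoglutarate dehydrogenase, Dlst, gave a log2 signal of 11.50 in the knockout CR heart and 11.80 in the knockout AL heart, against 11.37 and 11.45 in the control CR and AL hearts, with values of -0.30 in knockout and -0.08 in control hearts. Ogdh, the E1 subunit, was at -0.17 and 0.01. Fumarase (Fh1) was at 0.19 in knockout and 0.36 in control hearts, citrate synthase (Cs) at 0.02 and 0.12, and glutamate dehydrogenase (Glud1), which links glutamate to 2-oxoglutarate, at 0.08 and 0.07. The dimmer spots of Aco1, a cytosolic aconitase that doubles as an iron regulatory protein, pyruvate carboxylase (Pcx) and the malic enzyme Me2 were at 0.18, 0.16 and 0.13 in knockout hearts and at 0.22, 0.03 and 0.16 in control hearts.

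After normexp and loess, both ketone body enzymes had opposite signs in the genotypes, which Oxct1 did not have in the authors' deposited table. Bdh1, which oxidises 3-hydroxybutyrate to acetoacetate, gave a log2 signal of 9.33 in the knockout CR heart and 9.79 in the knockout AL heart, against 9.10 and 8.89 in the control CR and AL hearts, so that the knockout AL heart stood highest. The CR over AL value was -0.46 in knockout hearts, the lowest of the 31, and 0.21 in control hearts. Oxct1, which activates acetoacetate to its CoA ester, was at -0.16 in knockout hearts and 0.16 in control hearts, and in the authors' deposited table at -0.10 and -0.03. With the local background subtracted the signs turned round, to 0.22 (Bdh1) and 0.83 (Oxct1) in knockout hearts and -0.03 and -0.07 in control hearts.

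The CR response of the knockout hearts minus that of the control hearts cancels any dye bias the arrays share, but not one that differs between them. The mean log2 ratio of 1 repeated positive control was -0.78 on the knockout array and -0.09 on the control array. For the other it was -0.26 and -0.44, and the cause was not tested. The difference of responses was below 0 for 28 of 31 genes, against 51% of 11701 genes. Its median was -0.18 (all genes -0.003, bright spots -0.03). In the authors' deposited table it was below 0 for 14 and above 0 for 17 of the 31, with a median of 0.006, where bright spots had a median of 0.11, and with the local background subtracted the median was -0.03. The shift of the list as a whole therefore depends on the processing. Bdh1 was lower in the knockout response by at least 1.5-fold, at -0.67, where 0.521% of all genes were, and no gene was higher by 1.5-fold, where 0.393% were. Idh1 followed at -0.58, Pdhb at -0.47, Got1 at -0.41 and Pdhx at -0.37. Of these, Idh1 (-0.52 to -0.80), Pdhb (-0.24 to -0.69) and Pdhx (-0.28 to -0.40) kept their sign in all 6 ways of processing, whereas Bdh1 was at 0.25 and Got1 at 1.72 with the local background subtracted. Sucla2 (-0.20 to -0.34), Dld, Dlst, Sdha and Me2 also stayed below 0 each time. Sdha, Me2 and Dlst came as near to it as -0.018, -0.029 and -0.031. The share of all genes that stayed below 0 each time was not counted, so these members cannot be set against it. At the other end were Pcx at 0.13, Idh3g at 0.08, Glud1 at 0.01, Sdhb at -0.002 and Me2 at -0.03.

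Between the genotypes the same enzymes were mostly higher in the knockout hearts, with Sdha and Got1 highest under free feeding. Under CR 27 of 31 genes were higher in the knockout heart, against 50.9% of 11960 genes, with a median log2 knockout over control of 0.21 (all genes 0.003, bright spots 0.005). Under AL 28 of 31 were higher, against 52.5% of 12786 genes, with a median of 0.49 (all genes 0.008, bright spots 0.03). At least 1.5-fold higher were 4 genes under CR, where 1.45% of all genes were, and 11 under AL, where 2.6% were; no member was lower by 1.5-fold, where 1.07% and 1.78% were. The 4 under CR were Pdha1, Got1, Idh3g and Sdha, and the 11 under AL were these and Dlat, Fh1, Dld, Got2, Idh1, Pdhb and Bdh1. With median scaling of the channels 19 of 31 were higher under CR (median 0.06) and 23 of 31 under AL (median 0.16), while bright spots then lay at -0.17 and -0.15. With the local background subtracted 14 and 15 of 31 were higher, with medians of -0.27 and -0.15. Counts for the list as a whole thus depend on the processing. In the 5 ways of processing that compare the arrays, 9 genes were above 0 under both diets each time (Sdha, Got1, Pdha1, Pdhx, Dld, Idh3b, Idh3g, Idh1 and Aco1) and 2 were below 0 (Glud1 and Pcx), where 18% and 19.4% of 11701 genes were. Some of the 5 listed markers of atrial muscle also differed between control and knockout hearts, in both directions. Myl7 was lower in the knockout heart at -4.06 under CR and -3.95 under AL, and Myl4 at -2.71 and -2.47. Nppa was higher, at 1.95 and 0.99, and Bmp10 was at -0.06 and -0.005. Sln, compared under AL only, was at -0.09. The part of tissue sampling in the values of the members was not tested.

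**Figure D3:**
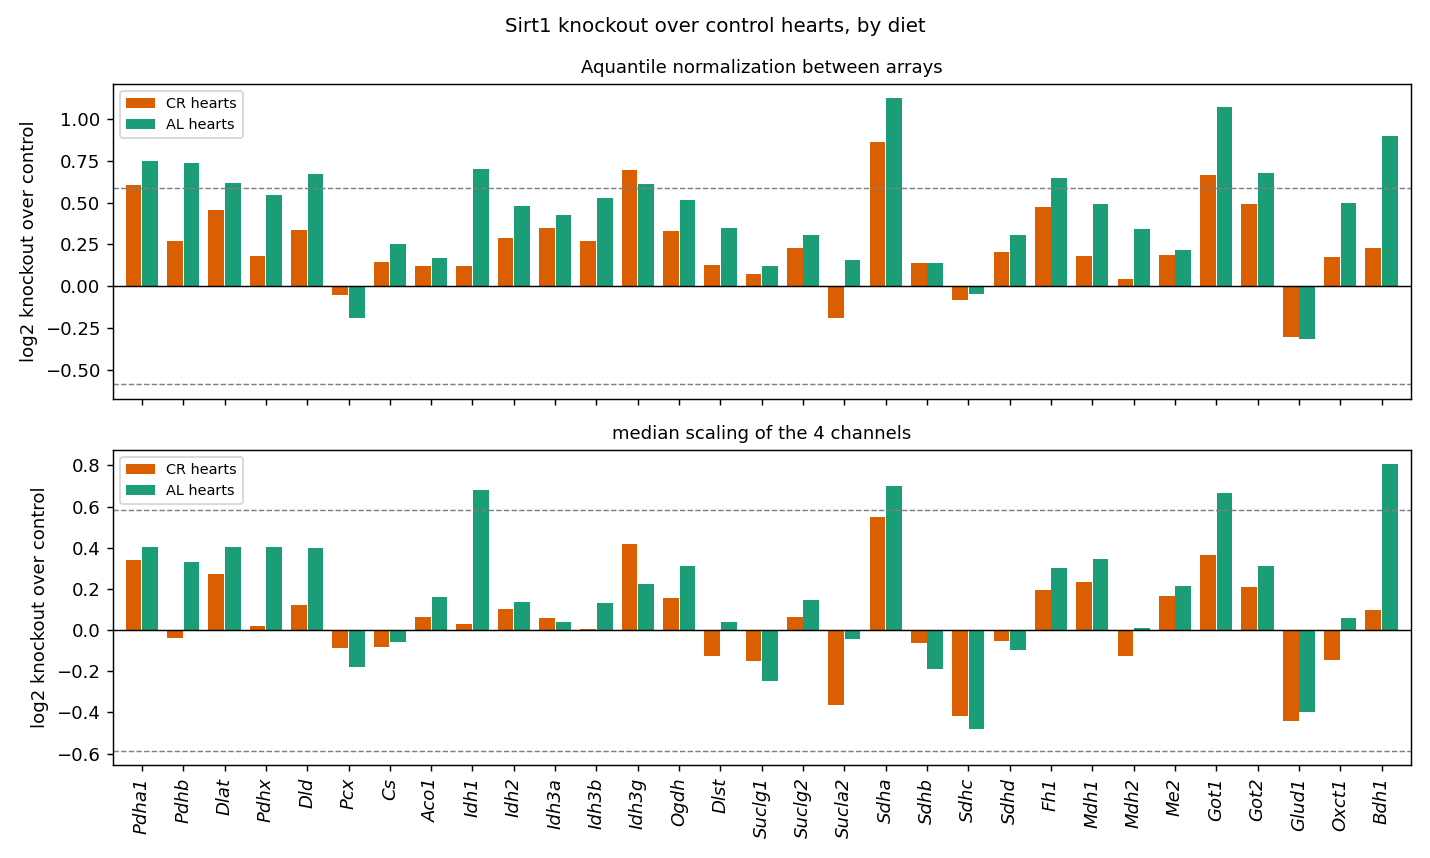
Log2 Sirt1 knockout over control (y axis) of each gene (x axis) in the CR hearts (orange) and the AL hearts (green), after Aquantile normalization between arrays (top) and after median scaling of the channels (bottom); dashed lines mark 1.5-fold. Sdha, Got1, Idh1 and Bdh1 pass the upper line under AL in both panels, while most bars are shorter or turned down with median scaling.

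Sdha gave a log2 signal of 13.44 in the knockout CR heart, against 12.59 in the control CR heart, and of 13.15 in the knockout AL heart, against 12.03 in the control AL heart. Both knockout hearts lay above both control hearts, with a difference of 0.86 under CR and 1.12 under AL (0.55 and 0.70 with median scaling). Before any scaling between arrays the spot stood 10495.1 scanner units above the blanks in the knockout CR heart and 7446.0 in the control CR heart, and 7348.6 and 4437.1 in the knockout and control AL hearts. The other complex II subunits were closer to 0: Sdhb was at 0.14 under both diets, Sdhc at -0.08 under CR and -0.04 under AL, and Sdhd at 0.21 and 0.31. Sdhb was at -2.35 and -6.55 and Sdhc at 2.16 and 1.64 with the local background subtracted. With median scaling Sdhb was at -0.06 and -0.19 and Sdhd at -0.05 and -0.10.

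Got1 was at 13.02 in the knockout CR heart, against 12.36 in the control CR heart, and at 12.93 in the knockout AL heart, against 11.86 in the control AL heart, a difference of 0.66 under CR and 1.07 under AL (0.36 and 0.67 with median scaling). Got2 was at 0.49 and 0.67, Mdh1 at 0.18 and 0.49 and Mdh2 at 0.04 and 0.35. Got2 and Mdh1 turned negative under both diets with the local background subtracted (Got2 to -2.74 and -4.63, Mdh1 to -1.83 and -1.90), so the sign of this shuttle was kept under both diets by Got1 alone. Around the Mdh1 spot the local background was 24571.9 and 25831.7 scanner units in the knockout CR and AL hearts and 6139.1 and 5126.2 in the control CR and AL hearts.

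All 5 subunits of pyruvate dehydrogenase were higher in the knockout hearts under both diets. Pdha1 was higher by 0.60 under CR and 0.75 under AL, Pdhb by 0.27 and 0.74, Dlat by 0.46 and 0.61, Dld by 0.34 and 0.67, and Pdhx by 0.18 and 0.55. The median of the 5 was 0.34 under CR and 0.67 under AL. With median scaling Pdhb was at -0.04 under CR, and with the local background subtracted Dlat was at -3.25 and -3.82.

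In the middle of the cycle, Idh3g was higher by 0.69 under CR and 0.61 under AL, with log2 signals of 13.16 and 13.11 in the knockout CR and AL hearts and 12.47 and 12.50 in the control CR and AL hearts, and Idh3a (0.35 and 0.43) and Idh3b (0.27 and 0.53) were on the same side. Idh1 was higher by 0.12 under CR and 0.70 under AL, Fh1 by 0.48 and 0.65, Ogdh by 0.33 and 0.52, Dlst by 0.13 and 0.35, Cs by 0.15 and 0.25, and Idh2 by 0.29 and 0.48. Bdh1 was higher by 0.23 under CR and 0.90 under AL, and Oxct1 by 0.18 and 0.50. Bdh1 was below 0 under both diets (-0.23 and -0.47) with the local background subtracted, and so were Idh3a (-0.61 and -1.58), Fh1, Ogdh, Idh2 and Oxct1, while Cs was at -1.20 under CR and 0.68 under AL. With median scaling Cs was below 0 under both diets (-0.08 and -0.06), and Dlst (-0.125) and Oxct1 (-0.144) were below 0 under CR.

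Few genes ran the other way. Glud1 gave a log2 signal of 8.98 in the knockout CR heart, against 9.29 in the control CR heart, and of 8.90 in the knockout AL heart, against 9.22 in the control AL heart. It was lower by similar amounts under both diets, at -0.30 and -0.32, and stayed below 0 in the 5 ways of processing that give this comparison (-0.28 to -0.70 under CR and -0.32 to -0.58 under AL). Pcx was at -0.05 under CR and -0.19 under AL, and Sucla2 at -0.19 and 0.16 (-0.37 and -0.04 with median scaling, -0.82 and -0.56 with the local background subtracted). Aco1 (0.12 and 0.17), Me2 (0.19 and 0.22), Suclg1 (0.07 and 0.12) and Suclg2 (0.23 and 0.30) were above 0. However, Me2 was at -0.34 and -0.22 and Suclg2 at -0.99 and -0.56 with the local background subtracted, and Suclg1 at -0.152 and -0.245 with median scaling.

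**Figure D4:**
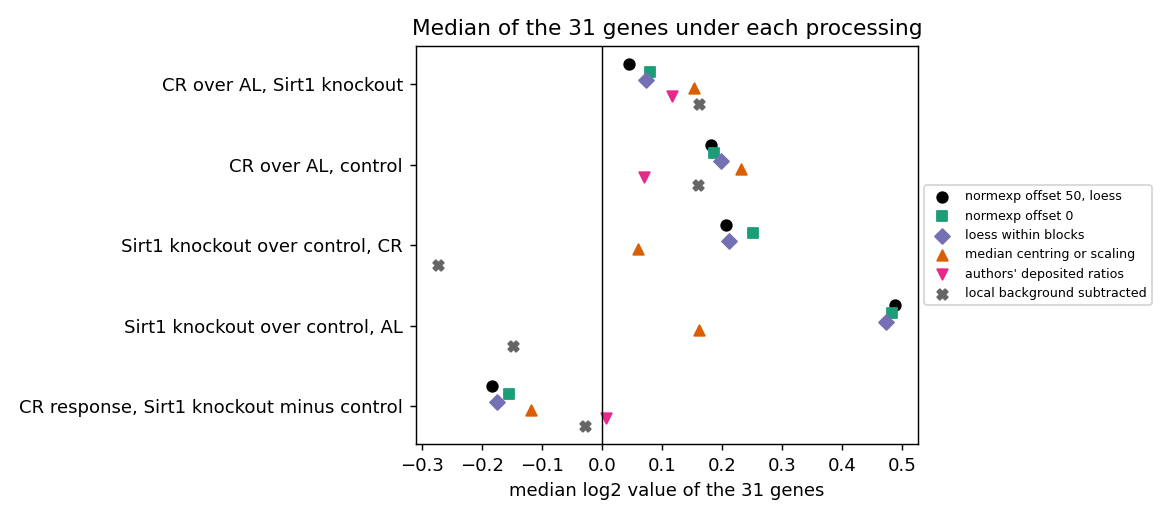
Median log2 value of the 31 genes (x axis) in each of the 5 comparisons (y axis) under 6 ways of processing, each with its own marker; the authors' deposited table gives no comparison between arrays. The black circles (normexp with offset 50 and loess) lie at 0.21 and 0.49 for knockout over control under CR and AL, and the grey crosses (local background subtracted) lie below 0 there, at -0.27 and -0.15.

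Genes that control or feed the cycle, from a list of 46 of which 38 were measured and 37 detected, are given for comparison. In the knockout hearts 23 of 37 were higher with CR (median 0.05) and in the control hearts 19 of 37 (median 0.008). Between the genotypes 22 of 37 were higher in the knockout heart under CR (median 0.06) and 24 of 37 under AL (median 0.06). Pdk4, the kinase that switches off pyruvate dehydrogenase when fat is burned, was higher with CR by 0.54 in knockout hearts and 0.50 in control hearts, and lower in the knockout than in the control heart, at -0.69 under CR and -0.73 under AL. Glul, glutamine synthetase, was higher with CR by 0.78 in knockout hearts and 0.48 in control hearts, and higher in the knockout hearts by 1.60 under CR and 1.30 under AL. With the local background subtracted the values of Glul were all within 0.184 of 0, and the CR over AL value of Pdk4 was at -0.13 in knockout and 0.45 in control hearts. Nnt, the mitochondrial transhydrogenase with a known deletion in C57BL/6J mice, was at 0.47 in knockout and 0.57 in control hearts for CR over AL. Slc25a12, a carrier of the malate-aspartate shuttle, was higher in the control CR heart by 0.53 and in the knockout AL heart over the control AL heart by 0.59, a value that turned to -1.36 with the local background subtracted. Mpc2, a subunit of the mitochondrial pyruvate carrier, was lower in the knockout hearts at -0.45 under CR and -0.67 under AL. Acly, which makes cytosolic acetyl-CoA from citrate, was at 0.60 for knockout over control under CR.

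Markers of other cells in the heart are given beside these values, and their part in them was not tested; in whole tissue, fewer cells of a type and less RNA per cell cannot be told apart. Of 14 cardiomyocyte markers 13 were measured, and their summed signal above the blanks was 233384 and 242228 scanner units in the knockout CR and AL hearts and 238814 and 249797 in the control CR and AL hearts. Such sums are not normalized between dyes or arrays. Myl2 stood at 62366.1 in the knockout AL heart and 65164.5 in the control AL heart, close to the highest scanner reading (65535), so these sums may be capped. Nppa is counted here and among the atrial markers. The median CR over AL value of these markers was -0.008 in knockout and 0.07 in control hearts, with 6 of 12 and 7 of 12 higher. Their median knockout over control value was 0.06 under CR (8 of 13 higher) and 0.23 under AL (9 of 12 higher). Single markers were far apart. With CR they ran from -0.77 (Myl3) to 0.99 (Nppa) in knockout hearts and from -0.72 (Mb) to 1.30 (Myh6) in control hearts. Knockout over control values ran from -0.51 (Ckm) to 1.95 (Nppa) under CR and from -0.24 (Myl3) to 1.53 (Myh6) under AL. All 9 fibroblast markers were measured, with sums of 3203 and 3852 in the knockout CR and AL hearts and 3556 and 4073 in the control CR and AL hearts, and were higher in the knockout heart in 7 of 9 under CR (median 0.16) and 7 of 9 under AL (median 0.49). With CR they were lower in 8 of 9 in knockout hearts (median -0.32, with Col3a1 at -2.30) and in 6 of 9 in control hearts (median -0.21). The 7 of 8 macrophage markers measured summed to 251 and 486 in the knockout CR and AL hearts and 328 and 451 in the control CR and AL hearts, and were lower with CR in 6 of 6 compared in knockout hearts (median -0.31) and in 6 of 7 in control hearts (median -0.10). The 8 endothelial markers summed to 757 and 885 in the knockout CR and AL hearts and to 958 and 843 in the control CR and AL hearts. The 5 markers of atrial muscle summed to 4716 and 2143 in the knockout CR and AL hearts and to 3703 and 3007 in the control CR and AL hearts, sums that hide opposite shifts. Nppa, which stressed ventricles also express, made up 4576.6 and 1996.7 of the knockout CR and AL sums and 1384.2 and 1143.8 of the control CR and AL sums. Myl7, the atrial light chain, stood 21.0 and 22.1 scanner units above the blanks in the knockout CR and AL hearts, against 1439.2 and 1165.8 in the control CR and AL hearts, and Myl4 stood at 56.7 and 69.1, against 793.6 and 639.6. Both knockout hearts were therefore far below both control hearts for these 2 genes, which, like Nppa and Col3a1, were singled out after their values were seen. Of 6 adipocyte markers, which summed to 86 and 78 and to 114 and 101, Lep was detected in no heart, and 2 of 5 red blood cell markers were measured (96 and 102, and 84 and 60).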

How the data were processed

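RNA of 4 hearts (1 per condition) was measured on 2 two-colour arrays of 23473 probes. Median intensity of each spot and of its surroundings is given in the deposited scanner files at 635 nm (Cy5, AL) and 532 nm (Cy3, CR), with scans at higher gain tied to the lowest gain by line fits, per the file headers. The sources used here do not name the scanner software. Normalized log2 ratios (CR over AL, per the labels) form the authors' deposited table. Its column medians were 8.079e-05 (knockout) and -2.885e-06 (control), and the log2 ratio of blank-subtracted signals (532 over 635 nm) less a constant (0.144 and 0.359) gave 16554 of 16555 and 17404 of 17405 values within 0.001, so its scale, centring and direction are known.

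Intensities were corrected with normexp (offset 50) without the local background and normalized by loess within arrays, with control spots and scanner-marked spots at weight 0, in limma 3.58.1 (R 4.3.3). Channels were compared between arrays after Aquantile. The design did not say how the local background would be used; leaving it out follows earlier work on these data, and its subtraction is an alternative. A spot was detected above the blank mean (5% left out at each end) plus 2 SD; detected were 74.0% and 77.6% of probes in the knockout CR and AL hearts and 77.8% and 80.7% in the control CR and AL hearts. The number of arrays limits precision, and no test was possible.

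Of the probes, 16631 had 1 gene symbol, none had several and 6842 had none. Symbols were updated through the GRCm38.p6 gene table, and the brightest probe stood for a gene. A change of 1.5-fold (0.585 in log2) was called. In each comparison the 5 highest and 5 lowest members, all past 1.5-fold, and the 4 highest and lowest of the other pathway genes were eligible to be named; Sirt1 is given once. Members and lists were chosen with earlier results of these data known. The steps were tested on simulated data, in which estimated differences were smaller than the true ones, most of all for dim spots. Values are called alike where they lie within the largest SD of repeated control spots (0.0883). It was taken from ratios within an array and does not measure spread between arrays. That tolerance and the promoter motif letters were chosen after the data were seen, and the NRF1 motif was shortened from a longer core that had matched no member.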

Additional observations from a re-analysis of the deposited data

Results flagged for a closer look

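Values of opposite sign, each larger than the SD of repeated control spots, were found for 3 genes. Each rests on 1 heart per condition, and none of the differences was tested. The SD of control spots comes from ratios within an array, so it does not measure the spread of the Sucla2 values, which compare arrays. For Bdh1 the CR response was -0.459 in knockout hearts and 0.209 in control hearts, a difference of -0.667. For Oxct1 it was -0.164 in knockout hearts and 0.155 in control hearts, a difference of -0.319. In the authors' deposited table both Oxct1 values were below 0, at -0.098 and -0.030. With the local background subtracted the signs of both genes turned round. For Sucla2 the knockout over control value was -0.189 under CR and 0.155 under AL, a difference of -0.344. The opposite signs were lost with median scaling (-0.366 and -0.042) and with the local background subtracted (-0.823 and -0.559).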

How the results depend on the processing

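No paired analysis was possible because each condition was measured in 1 heart and no result comes from a test. With a normexp offset of 0, loess within blocks, no detection filter, genes at or above the median signal, the mean of all probes (each member has 1) and bright spots left out (no member was within 5% of the scanner limit), the medians of the 31 genes moved by less than the spot noise. With the local background subtracted they were 0.162 (CR over AL, knockout), -0.273 and -0.148 (knockout over control under CR and AL) and -0.028 (difference of responses), against 0.045, 0.206, 0.489 and -0.183. With median centring or scaling they were 0.154 (CR over AL, knockout), 0.06 and 0.162 (knockout over control under CR and AL). In the authors' deposited table they were 0.07 (CR over AL, control, against 0.182) and 0.006 (difference of responses). Genes called at 1.5-fold turned round with the local background subtracted in 5 cases: Bdh1 (-0.471), Dlat (-3.823), Fh1 (-0.59) and Got2 (-4.626) for knockout over control under AL, and Bdh1 (0.246) for the difference of responses. The cause was not tested. The local background had a median of 59.7% and 61.2% of the spot brightness of the members in the knockout CR and AL hearts and of 63.3% and 53.8% in the control CR and AL hearts. Over all named genes it was 87.2% and 67.8% in the knockout CR and AL hearts and 87.2% and 69.0% in the control CR and AL hearts.

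Counts past 1.5-fold moved as well. For CR over AL in knockout hearts they were 6 higher and 3 lower with the local background subtracted, against 1 and 0. In control hearts, against 1 higher and 0 lower, 2 were higher with offset 0, 2 in the authors' deposited table and 5 with median centring, and 6 were higher and 1 lower with the local background subtracted. For knockout over control under CR, against 4 higher and 0 lower, 0 were higher with median scaling, and 11 were higher and 11 lower with the local background subtracted. Under AL, against 11 and 0, 4 were higher with median scaling, and 8 were lower with the local background subtracted. For the difference of responses 2 were lower with offset 0, with median centring and in the authors' deposited table, and 5 were higher and 6 lower with the local background subtracted, against 0 and 1. With median centring 7 of 31 differences of responses were above 0, against 3.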
